A study of Mus musculus with 11 samples.

Results

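Chkb and Gpcpd1 are 2 of the 8106 named genes tested on cDNA arrays of mouse ventricles, and they are read by 5 of the 12563 spots with 1 gene symbol (1 spot for Chkb and 4 for Gpcpd1). Chkb codes for choline kinase beta, and Gpcpd1 for a glycerophosphocholine phosphodiesterase. They were picked because their values in hypertrophic carrier hearts against wild-type hearts were below 0 on every direct array and among the lowest of all genes. That contrast is therefore given below as a description with no test.

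Phosphatidylcholine is the main phospholipid of most animal cell membranes. Choline kinases phosphorylate choline, the first step of the CDP-choline route by which cells make phosphatidylcholine. When phosphatidylcholine is broken down completely, both of its fatty acids are removed and glycerophosphocholine is left, which glycerophosphocholine phosphodiesterases split. Chkb thus stands at the entry of the synthetic route and Gpcpd1 on the branch that follows breakdown. Loss of Chkb is known to cause a muscular dystrophy in mice and in people.

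The mice belong to the TG1306/1R line, which overexpresses angiotensinogen in the heart, on a strain labelled C57/BL6; the promoter that drives the transgene is not named in the labels. All 12 were males about 60 weeks old, in 3 groups of 4. WT mice were littermates negative for the transgene (-/-), Hyp mice were heterozygous carriers with concentric hypertrophy, and Dil mice were heterozygous carriers with a dilated heart. Both carrier groups have the same genotype and were told apart by chamber morphology, cardiac weight index and hypertrophic marker expression, so the difference between them is one of selected phenotype. The cardiac weight index was 4.2 to 4.9 mg/g in WT, 5.3 to 5.8 mg/g in Hyp and 7.8 to 9.2 mg/g in Dil. For the mouse Hyp3 the labels give 5.3 mg/g on its array with a WT mouse and 5.6 mg/g on its array with a Dil mouse. It is treated here as the same animal. RNA came from both ventricles and the septum, and fewer cells of a type and less RNA per cell cannot be told apart in it.

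Each of the 11 arrays compared 2 mice with the same number, called a set here, of which one was labelled with Cy3 and the other with Cy5. There were 4 arrays of Hyp with WT, 3 of Dil with WT (sets 1, 3 and 4; the set 2 array was not analysed here) and 4 of Dil with Hyp. A value is the log2 ratio of the 2 dyes, turned so that a negative value means less RNA in the first-named group. The direction of the deposited ratio is only likely. Its basis is that Agt, the gene this line overexpresses, and Nppb, a hypertrophic marker, came out higher in carriers (in Dil minus WT by 2.15 ± 0.40 and 2.53 ± 0.32, SE), and with the opposite direction every sign below would turn. Ratios give no level, so the amounts of Chkb and Gpcpd1 RNA cannot be compared with each other.

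The platform's spots were matched by symbol to RefSeq promoter sequences (build GRCm38.p6), which held 1 of the 2 genes, Chkb. Its window of 300 bases around the gene start, at chr15:89429878-89430177 on the minus strand, is shown as context for a gene whose values lay below 0 in both carrier groups; no array measured the promoter itself. Capitals mark the motifs found.

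Chkb promoter: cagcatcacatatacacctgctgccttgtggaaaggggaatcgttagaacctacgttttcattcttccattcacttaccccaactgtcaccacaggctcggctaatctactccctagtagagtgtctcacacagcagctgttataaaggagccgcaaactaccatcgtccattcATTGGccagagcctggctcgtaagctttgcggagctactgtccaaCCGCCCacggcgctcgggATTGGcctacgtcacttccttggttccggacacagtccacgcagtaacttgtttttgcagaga

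The window was searched on both strands for the GC box GGGCGG, the CCAAT box, the E-box CACGTG and the extended nuclear receptor half-site AAGGTCA, and the matches did not overlap. It held CCAAT at bases 175 to 179 and 238 to 242 and GGGCGG at bases 220 to 225, all on the opposite strand, and neither of the other motifs. Of the 32851 promoter windows in the table, 37.4% held CCAAT, 35.7% held GGGCGG, 7.15% held CACGTG and 4.72% held AAGGTCA.

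Hypertrophic and wild-type hearts were compared first, since the genes were chosen there. Chkb was below 0 on all 4 arrays, with -0.16, -0.58, -0.36 and -0.25 in sets 1 to 4. Set 2 was lowest and set 1 nearest to 0. The fit over all 11 arrays, which also uses the arrays of the other contrasts, gave -0.29 ± 0.06 (SE, 4 mice per group), or 0.819 of the WT level. Gpcpd1, averaged over its spots, was -0.32, -0.66, -0.42 and -0.32 on the same arrays. Set 2 was again the lowest. The fitted value was -0.47 ± 0.11, or 0.722 of the WT level. Over all features with the 4 arrays, 8.21% were below 0 on each of them. Of the 8106 genes, 65 had a fitted value at or below that of Chkb and 17 at or below that of Gpcpd1. No feature of 12097 passed an adjusted p of 0.05 in Hyp minus WT (0% called; limma with Benjamini-Hochberg adjustment, lowest adjusted p 0.871), and 533 had an unadjusted p below 0.05.

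**Figure D1:**
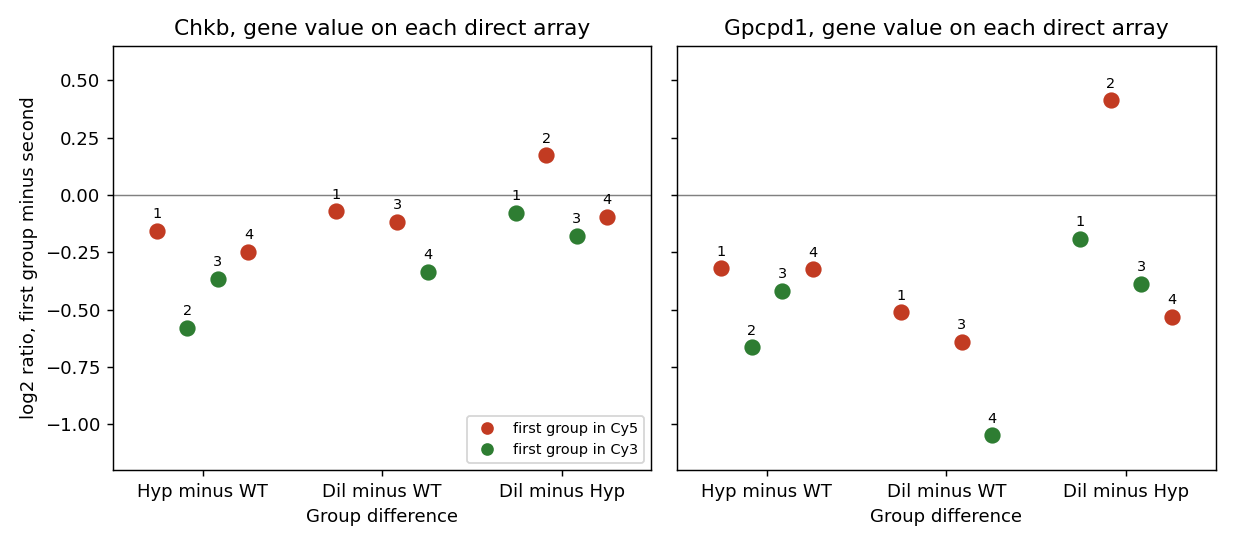
Gene values of Chkb (left) and Gpcpd1 (right) on each of the 11 arrays, as log2 ratios on the vertical axis and grouped by contrast on the horizontal axis. Each point is 1 array with its set number above it, and colour gives the dye of the first-named group. All Hyp minus WT and Dil minus WT points lie below 0, and in Dil minus Hyp only set 2 lies above it (0.17 for Chkb, 0.41 for Gpcpd1).

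In the fit over all arrays, dilated hearts had less Gpcpd1 RNA than wild-type hearts. That fit includes the arrays of Hyp with WT, on which the gene was chosen as low. The 3 direct arrays gave -0.51, -0.64 and -1.05 in sets 1, 3 and 4, all below 0 and lowest in set 4. The fit gave -0.68 ± 0.11 (SE, 4 mice per group), or 0.623 of the WT level, with an interval of -0.93 to -0.43 (95%), and Gpcpd1 fell past the threshold over all features (limma, adjusted p = 0.0173). In this contrast 2.15% of the 12097 features passed in either direction and 1.15% passed as lower, and 28 of the 8106 genes had a value at or below that of Gpcpd1. With 1 value per set (the replicate block) the value was -0.61 and the call was lost (limma, adjusted p = 0.148). The call was also lost from the 3 direct arrays alone (-0.73, limma adjusted p = 0.472) and without set 1, 3 or 4 (limma adjusted p = 0.0652, 0.265 and 0.153), and it held without set 2 (limma, adjusted p = 0.0143).

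Chkb gave -0.07, -0.12 and -0.33 on the 3 arrays of Dil with WT. Set 4 was lowest, and the values in sets 1 and 3 were small. The fitted value was -0.28 ± 0.07 (SE, 4 mice per group), or 0.822 of the WT level, with an interval of -0.43 to -0.14, and it did not pass the threshold over all features (limma, adjusted p = 0.0570). With arrays taken as independent it passed (-0.28, limma adjusted p = 0.0317), and over all alternatives other than leaving out a set the adjusted p from limma lay between 0.0317 and 0.864. Being below 0 on all 3 arrays was shared by 14.3% of features. Both Dil values and their tests draw on the WT mice, and through the fit on the arrays of Hyp with WT, in which the genes were chosen as low. They are therefore not independent of that choice. Side by side, Chkb had -0.29 in Hyp and -0.28 in Dil, and Gpcpd1 had -0.47 in Hyp and -0.68 in Dil, each against the same WT mice and from the fit over all arrays. From the direct arrays alone, with no dye term, the values were -0.34 and -0.17 for Chkb, and -0.43 and -0.73 for Gpcpd1.

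Dilated and hypertrophic hearts were compared directly on 4 arrays. Chkb gave -0.08, 0.17, -0.18 and -0.10 in sets 1 to 4, on both sides of 0. The fitted difference was 0.00 ± 0.06 (SE, 4 mice per group) with an interval of -0.14 to 0.14, which is 0.911 to 1.11 of the Hyp level (limma, adjusted p = 0.995). Its sign changed between settings: it was -0.04 from the direct arrays alone, and -0.0087 without set 1 and -0.03 without set 2. Gpcpd1 gave -0.19, 0.41, -0.39 and -0.53, with set 2 alone above 0. Neither gene was below 0 on all 4 arrays, while 6.51% of features were. Its fitted difference was -0.21 ± 0.11 with an interval of -0.45 to 0.02, or 0.733 to 1.02 of the Hyp level, and did not pass (limma, adjusted p = 0.591). Without set 2 it was -0.36 (limma, adjusted p = 0.213), without set 4 it was -0.08, and it was -0.07 after scaling the arrays to 1 common spread. In this contrast 0.165% of features passed in either direction and 0.0248% as lower.

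**Figure D2:**
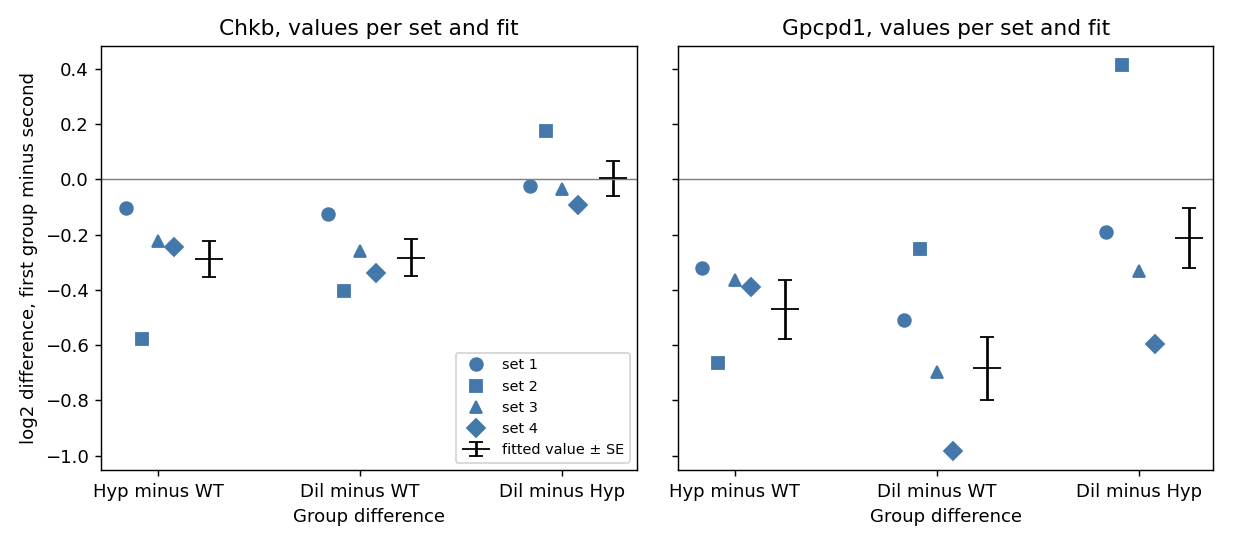
Chkb (left) and Gpcpd1 (right): log2 difference per set, from least squares over the arrays of that set (blue symbols), beside the fitted value ± SE over all arrays (black). In Dil minus WT all 4 sets lie below 0 for both genes, from -0.40 to -0.13 for Chkb and from -0.98 to -0.25 for Gpcpd1. These set values also use the arrays of Hyp with WT, on which the genes were chosen as low.

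Joining the arrays of each set gives a value for every set, including set 2, whose Dil and WT mice meet through Hyp2. For Dil against WT the 4 set values of Chkb were -0.13, -0.40, -0.26 and -0.34 (mean -0.28 ± 0.12, SD, n = 4). Those of Gpcpd1 were -0.51, -0.25, -0.70 and -0.98 (mean -0.61 ± 0.31). Set 2 was thus the lowest of the 4 sets for Chkb and the nearest to 0 for Gpcpd1. Each of these values also uses its set's array of Hyp with WT, on which the genes were chosen as low. Their signs are therefore not independent of that choice, least of all in set 2, where no other array holds the WT mouse. The share of all features below 0 in all 4 sets was not counted. Both arrays of set 2 contain the mouse Hyp2, in Cy3. On them Gpcpd1 was 0.66 lower in Hyp2 than in WT2 and 0.41 higher in Dil2 than in Hyp2, and Chkb was 0.58 lower and 0.17 higher in the same order. In Dil minus Hyp the set values spread from -0.59 to 0.41 for Gpcpd1 and from -0.09 to 0.17 for Chkb.

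Both genes were further from 0 where the carrier was labelled with Cy3. In Hyp minus WT, Chkb averaged -0.47 on the 2 arrays with Hyp in Cy3 and -0.20 on the 2 with Hyp in Cy5. Gpcpd1 averaged -0.54 and -0.32 on the same arrays. How many of all features differ in this way between 2 and 2 arrays was not counted. The single array of WT with Dil in Cy3 was the lowest of its 3 for both genes. The dye term of the fit, which is the shift in favour of Cy5, was 0.10 for Chkb and 0.11 for Gpcpd1. Without that term the values were -0.28 and -0.26 for Chkb, and -0.47 and -0.68 for Gpcpd1, in Hyp and Dil against WT. In Hyp minus WT the signs were the same in both dye orientations, which the choice of the genes fixed beforehand. In Dil minus WT they were also the same, with only 1 array that had Dil in Cy3.

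In sets 1, 3 and 4 all 3 groups met on arrays. Hyp minus WT plus Dil minus Hyp less Dil minus WT would then be 0 without error or dye bias. The array values used here carry no dye correction, and a dye shift does not cancel in the sum. By the labelling it adds up over all 3 arrays in sets 3 and 4, and cancels in part in set 1. Its share in the sums was not tested. For Chkb this sum was -0.16, -0.42 and -0.01 in sets 1, 3 and 4, and the value in set 3 was larger in size than any Chkb difference measured directly in that set. For Gpcpd1 it was 0.0009, -0.17 and 0.19. The median size over all features was 0.13, 0.28 and 0.29 in these sets.

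The 4 Gpcpd1 spots lie in different print blocks (6, 16, 23 and 29 of 32, called spots 1 to 4). Spot 1 read the smallest differences. In Dil minus WT its values were -0.01, -0.22 and -0.53 in sets 1, 3 and 4. Spot 2 gave -0.58, -0.68 and -1.55, spot 3 gave -0.73, -0.96 and -1.0045, and spot 4 gave -0.72, -0.70 and -1.11. Fitted alone over all arrays, the spots gave -0.38, -0.86, -0.76 and -0.74, and each passed with every spot as a feature of its own (limma, adjusted p = 0.0478, 0.0182, 0.0405 and 0.0261). In that fit 302 spots were called in either direction, beside 260 features (2.15%) in the fit with spots averaged. The 4 spots read the same RNA on the same arrays, so their calls are repeats of 1 result. The same spots gave -0.19, -0.64, -0.55 and -0.53 in Hyp minus WT.

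**Figure D3:**
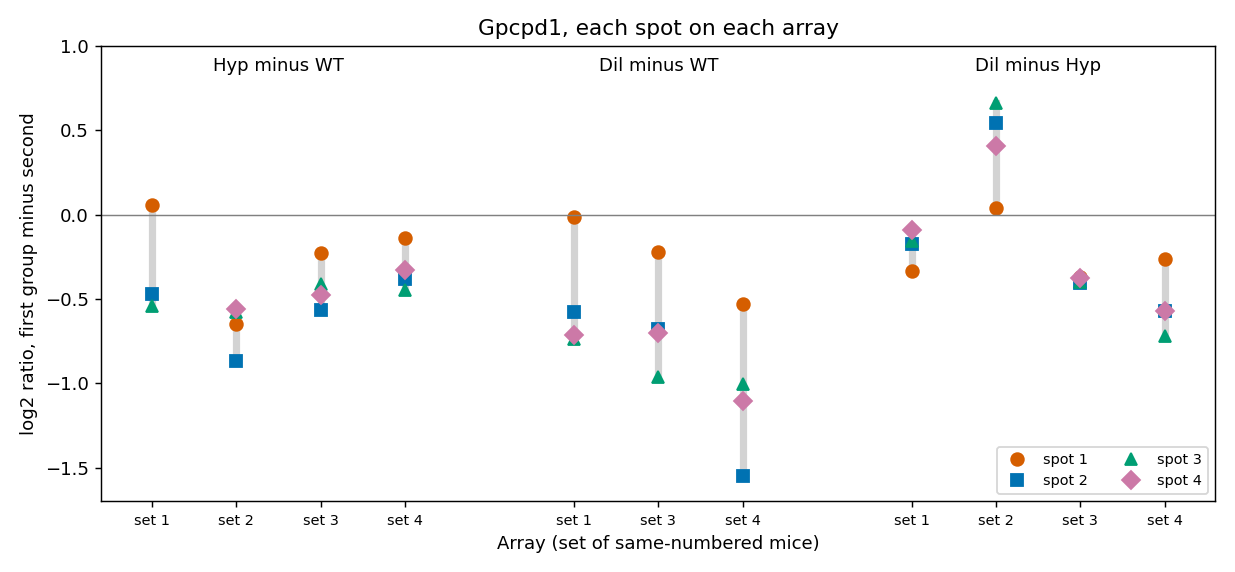
Each Gpcpd1 spot on each array: log2 ratio on the vertical axis, arrays ordered by contrast and set on the horizontal axis, with a grey bar from the lowest to the highest spot. Spot 1 (orange circles) is nearest to 0 on 9 of the 11 arrays, and spot 4 has no point on the set 1 array of Hyp with WT.

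Spots shared an array's sign on 10 of 11 arrays, the exception being the set 1 array of Hyp with WT, where spot 1 was 0.06 and spots 2 and 3 were -0.47 and -0.54. On the set 1 array of Dil with Hyp the order was turned, and spot 1 was lowest at -0.34. The range between spots of an array ran from 0.03 to 1.02 with a median of 0.46. Taken through 0 over the arrays, spot 1 changed by 0.394 per unit of the mean of the other spots. In Dil minus Hyp the 4 spots nonetheless had close fitted values of -0.19, -0.22, -0.21 and -0.22. Which part of the transcript each clone covers was not examined. Without spot 1 the Gpcpd1 value was -0.57 in Hyp and -0.79 in Dil, each against WT (Dil: limma, adjusted p = 0.0213). Chkb has a single spot, so no such agreement can be given for it.

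The column of the set 1 array of Hyp with WT had rows out of place and was realigned. The value of Chkb lies in rows that kept their place. Gpcpd1 spots 1 to 3 were moved back, and spot 4 was left without a value there. With that array left out, Chkb was -0.29 in Hyp and -0.28 in Dil and Gpcpd1 was -0.49 and -0.70, each against WT.

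Other genes of choline phospholipid metabolism and of neighbouring lipid steps were taken from fixed lists. The neighbouring steps include glycerolipid, cardiolipin and sphingomyelin genes. The lists were written with earlier results of these data known, so the called shares below are a description. Without Chkb, Gpcpd1 and Cpt1b the lists held 145 symbols, of which 89 were measured. In Hyp minus WT 0 of the 89 passed (limma; 5 had an unadjusted p below 0.05), 37 were below 0 and their median was 0.01, while 49.6% of all genes were below 0. In Dil minus WT 3 fell and 0 rose, which is 3.37% of the 89 beside the 2.15% of all features called, 41 were below 0 and the median was 0.02 (all genes: 48.5% below 0, median 0.0046). In Dil minus Hyp 1 fell, which is 1.12% beside the 0.165% called over all features, 46 were below 0 and the median was -0.0028 (all genes: 50.8% below 0, median -0.0019). The shares below 0 were thus close to those of all genes in Dil minus WT and Dil minus Hyp. In Hyp minus WT the share was lower (37 of 89 beside 49.6%). The called shares rest on 3 genes and 1 gene.

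Among the kinases 3 of 4 were measured. Chka, which codes for the other choline kinase and is read by 2 spots, was 0.14 ± 0.07 in Hyp and 0.07 ± 0.08 in Dil against WT, and it did not pass in Dil minus WT (limma, adjusted p = 0.711). On the direct arrays of Hyp with WT it was 0.15, 0.31, -0.06 and 0.06, where Chkb was below 0 throughout. Etnk1, an ethanolamine kinase, was 0.00 ± 0.08 in Hyp and -0.16 ± 0.08 in Dil.

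The list of CDP-choline and CDP-ethanolamine synthesis, which holds the later steps towards phosphatidylcholine and phosphatidylethanolamine, had 4 of 7 members measured and none passed in any contrast. Pcyt1a, the enzyme that makes CDP-choline and controls the rate of this route, was 0.04 ± 0.15 in Hyp and 0.06 ± 0.16 in Dil. Cept1, which joins the head group to diacylglycerol, was 0.04 ± 0.14 and -0.11 ± 0.15. Pemt, which makes phosphatidylcholine by methylating phosphatidylethanolamine, was 0.05 ± 0.05 and 0.09 ± 0.05. With Selenoi, of the ethanolamine branch, all 4 lay within 0.11 of 0 in both carrier groups. Pcyt2, Chpt1 and Pctp were not measured.

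In the glycerophosphodiester phosphodiesterase list Gpcpd1 was the member that passed among 3 measured of 7, in Dil minus WT. Gde1, which acts on other glycerophosphodiesters, was -0.06 ± 0.05 in Hyp and -0.05 ± 0.05 in Dil. Gdpd1 was -0.02 ± 0.11 and -0.26 ± 0.11 (Dil: limma, adjusted p = 0.282). Choline transport (3 measured of 11) and choline oxidation (4 of 6) had no member past the threshold in either comparison with WT, and their medians in Dil minus WT were -0.11 and -0.0041. Slc44a1, a choline transporter, was -0.17 ± 0.10 in Hyp and -0.14 ± 0.11 in Dil.

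**Figure D4:**
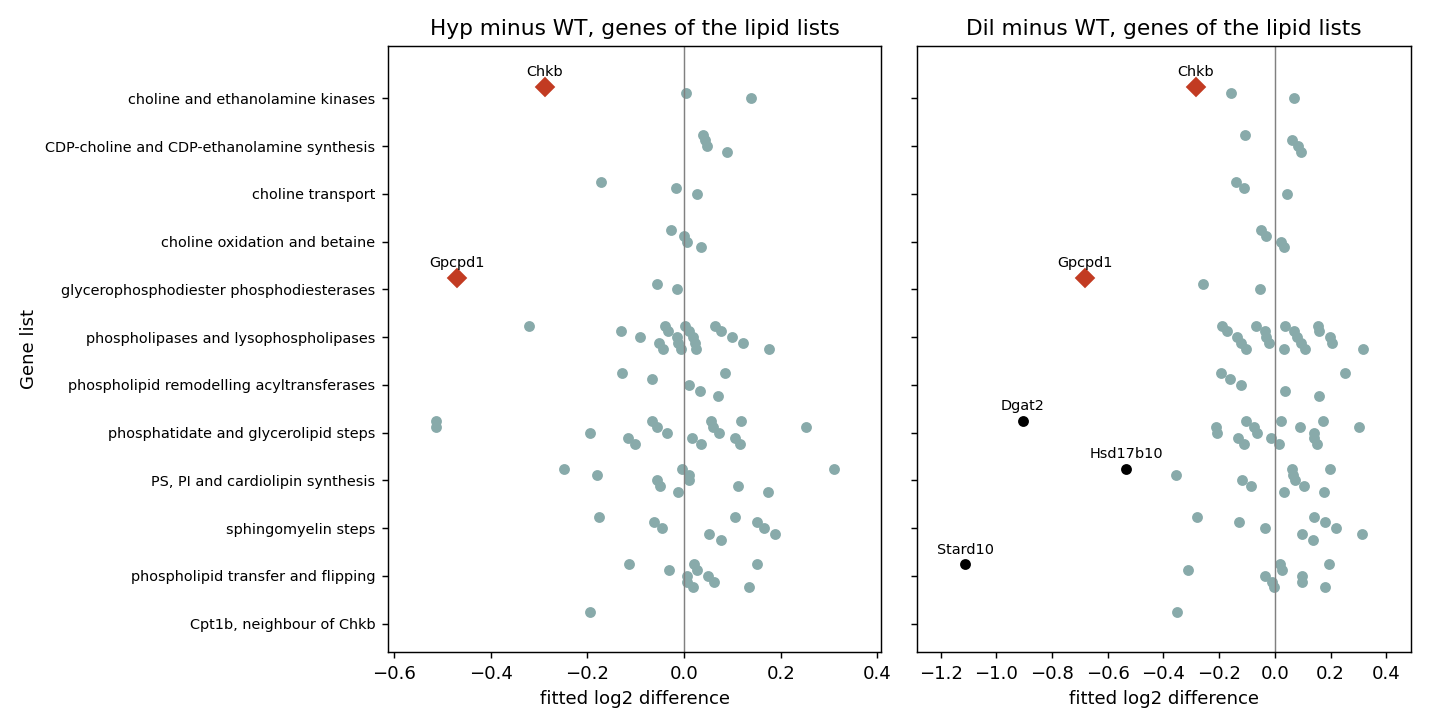
Fitted log2 difference of each measured gene of the lipid lists (horizontal axis) by list (vertical axis), for Hyp minus WT (left) and Dil minus WT (right, on a wider scale). Red diamonds are Chkb and Gpcpd1, black points are other genes past the threshold in Dil minus WT, and the remaining points did not pass (PS, phosphatidylserine; PI, phosphatidylinositol). Stard10, Dgat2 and Hsd17b10 are the black points, at -1.11, -0.90 and -0.53.

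The 3 other genes that fell in Dil minus WT belong to neighbouring lipid steps. Stard10, a lipid transfer protein that binds phosphatidylcholine and phosphatidylethanolamine, had set values of -1.26, -0.83, -1.50 and -0.81 and fell by 1.11 on the log2 scale (SE 0.12; limma, adjusted p = 0.00369). It also fell in Dil minus Hyp (-1.13 ± 0.11; limma, adjusted p = 0.00522), and in Hyp minus WT it was 0.02 ± 0.11. Dgat2, which makes triglyceride from diacylglycerol, was -0.90 ± 0.20 in Dil (limma, adjusted p = 0.0486) and -0.51 ± 0.19 in Hyp against WT. Hsd17b10, a mitochondrial dehydrogenase placed in the list for its reported action on cardiolipin, was -0.53 ± 0.11 in Dil (limma, adjusted p = 0.0412). All 3 had values below 0 in each of the 4 sets of Dil minus WT. They had passed as lower on these same arrays, so the signs are not separate evidence.

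At the ends of the lists were genes that did not pass. In Hyp minus WT the lowest were Gpam, a glycerol-3-phosphate acyltransferase (-0.51 ± 0.16), and Dgat2 (-0.51 ± 0.19), both below Gpcpd1 (-0.47 ± 0.11). The highest were Cds2, a CDP-diacylglycerol synthase (0.31 ± 0.22), the phosphatidate phosphatase Lpin2 (0.25 ± 0.11) and Samd8 (0.19 ± 0.26). In Dil minus WT the highest were Pld3 (0.32 ± 0.13), the acid sphingomyelinase gene Smpd1 (0.31 ± 0.24) and Lpin2 (0.30 ± 0.12). In Dil minus Hyp the lowest after Stard10 were Dgat2 (-0.39 ± 0.19) and Hsd17b10 (-0.35 ± 0.10), and the highest were the lysophospholipase Pnpla7 (0.48 ± 0.29), Gpam (0.44 ± 0.16) and Prelid3b (0.20 ± 0.07). Cds2 ranged from -0.23 to 1.00 over the 4 sets of Hyp minus WT.

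Cpt1b, the muscle carnitine palmitoyltransferase that admits long-chain fatty acids to mitochondria, is the gene next to Chkb in the RefSeq annotation. Its single spot gave 0.00, -0.81, -0.35 and -0.02 in Hyp minus WT and 0.29, -0.46 and -0.31 in Dil minus WT. The values near or above 0 were those in sets 1 and 4 of the first contrast and set 1 of the second. The fit gave -0.20 ± 0.15 in Hyp and -0.35 ± 0.16 in Dil, and the latter did not pass (limma, adjusted p = 0.294).

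Genes with the most similar pattern over the arrays were found by the cosine of the log ratios, a measure that does not depend on the direction of the arrays. For Chkb they were Tesc, a calcium-binding protein (cosine 0.951 over 10 arrays), Gadd45a, a stress-induced growth arrest gene (0.916 over 11), Ctnna1, which codes for alpha-catenin (0.868), Mid1ip1 (0.867 over 10) and Ppp1r9a (0.866). For Gpcpd1 they were Npc1, a lysosomal cholesterol transporter (0.959), Nudt6 (0.947), Decr1, an enzyme of the oxidation of unsaturated fatty acids (0.933), the cytokine gene Il15 (0.930) and Dgat2 (0.923), each over 11 arrays. Chkb and Gpcpd1 had a cosine of 0.852 with each other. Among 8105 genes Gpcpd1 ranked 12 for Chkb, and Chkb ranked 73 for Gpcpd1. The arrays of Hyp with WT, on which both genes were chosen as low, are among those compared, so this likeness follows in part from the choice. Arrays of a set share mice, so these 11 points are not independent.

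A high cosine with Chkb or Gpcpd1 fixes the sign of most values, so the values of these genes only describe the pattern. Tesc was -0.43 in Hyp and -0.56 in Dil, and Gadd45a was -0.59 in both. Ctnna1 and Ppp1r9a had smaller values than Chkb (-0.10 and -0.15 in Hyp), since the cosine compares the pattern and not the size. Those near Gpcpd1 were further from 0 in Dil than in Hyp, as for Decr1 (-0.38 and -0.76), Il15 (-0.42 and -0.76) and Npc1 (-0.23 and -0.42).

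Markers of cell types could be followed only in part. Of 11 cardiomyocyte markers 1 was measured, Ryr2, the calcium release channel of the sarcoplasmic reticulum, at -0.33 ± 0.12 in Dil minus WT. Of 10 fibroblast markers 9 were measured, with 7 above 0 in Dil minus WT and a median of 0.22 (range -0.20 to 0.82). Their medians by set were 0.0056, 0.04, 0.54 and 0.45, where Gpcpd1 had -0.51, -0.25, -0.70 and -0.98. In Hyp minus WT the fibroblast median was -0.0045. The medians of the endothelial (5 of 8 measured), smooth muscle and pericyte (3 of 6) and adipocyte (4 of 5) markers in Dil minus WT were -0.06, -0.03 and -0.01, with ranges of -0.16 to 0.40, -0.73 to 0.06 and -0.22 to 0.09. The lowest of them was Myh11, the smooth muscle myosin heavy chain, at -0.73 and below 0 in all 4 sets (limma, adjusted p = 0.0595), named after its values were seen. Those of the macrophage (2 of 7) and erythrocyte (1 of 6) markers were 0.20 and 0.35. None of the 25 measured markers passed in any contrast (limma). An unadjusted p below 0.05 (limma) was found for 0, 6 and 6 of them in Hyp minus WT, Dil minus WT and Dil minus Hyp. Over all 12097 features the counts were 533, 1965 and 1166 in the same order. The part of the markers in the Chkb and Gpcpd1 values was not tested.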

How the data were processed

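Total RNA of 2 mice per array was labelled with Cy3 and Cy5 and hybridised to printed cDNA slides, per the labels' protocols. The authors deposited 1 log ratio of the dyes per spot and array, taken here as log2 of Cy5 over Cy3. How the slides were scanned, background-corrected and normalized is not given in the sources used here. Neither are the base of the logarithm and its direction; for natural logarithms every fold would lie further from 1 than printed. Column medians lay between -0.0114 and 0.0068. Spot brightness was not used, so the number of arrays limits the precision.

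The column of WT1 and Hyp1 was realigned: 40 of 46 groups of 12 positions lay 8 print blocks away, 11520 spots were moved back and 3840 were left empty. Correlation with the sum of the other set 1 arrays over named spots rose from 0.492 to 0.810. The groups were placed by their correlation with that same sum, and the second value leaves out the empty spots. The rise is therefore not an independent check of the realignment. Spots of a gene were averaged, and features needed a value on 9 of 11 arrays (12097 features: 8106 genes, 3991 spots with no single symbol).

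Generalised least squares per feature estimated the Hyp and Dil differences from WT and a dye term, with mice as random effects (1 shared variance ratio, 0.303), moderated with limma 3.58.1 in R 4.3.3 (prior df 3.26). Adjustment followed Benjamini-Hochberg across all of the features, and 0.05 was the threshold. Same-numbered mice share arrays, which is what pairs the sets. The labels describe the 4 mice of a group as biological replicates.

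Members and lists were chosen with earlier results of these data known. Genes named from the lists were those past the threshold, the 3 lowest and 3 highest per contrast, and a fixed set of key enzymes; similar genes were the 5 with the highest cosine. Gene symbols came from the platform annotation.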

Additional observations from a re-analysis of the deposited data

How the results depend on the processing

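Of the 120 Chkb and Gpcpd1 values recomputed under other settings, 109 kept their direction and their side of the threshold or, in Hyp minus WT, moved by less than the spread between sets. Some settings could hardly move a value. Robust moderation in limma and other limits on missing arrays left the fitted values as they were, and Chkb has a single spot that kept its place. In Dil minus Hyp neither gene was called in any setting, so the count there rests on the sign. Chkb lay between -0.35 and -0.28 in Hyp minus WT and between -0.29 and -0.17 in Dil minus WT over the settings other than leaving out a set, and Gpcpd1 between -0.64 and -0.19 and between -0.86 and -0.38. In Dil minus WT, Chkb passed with arrays as independent (-0.28, limma adjusted p = 0.0317). Gpcpd1 lost its call with the replicate block (-0.61, limma adjusted p = 0.148) and from direct arrays alone (-0.73). Leaving out a set gave -0.74 to -0.57 for Gpcpd1 in that contrast. In Dil minus Hyp, Gpcpd1 lay between -0.24 and -0.07 over the settings other than leaving out a set, nearest to 0 with arrays scaled to the same spread. In Hyp minus WT it was -0.19 at spot 1 and -0.64 at spot 2. Chkb in Dil minus Hyp turned to -0.044 from direct arrays alone and ranged from -0.034 to 0.032 without a set (-0.0087 without set 1). The replicate block changed no other call of these genes. The cause was not tested. By construction, direct arrays alone and left-out sets use fewer arrays, and direct arrays alone and the replicate block have no dye term.

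The 260 features called in Dil minus WT became 99 with arrays scaled to the same spread, 4 with the replicate block, 0 from direct arrays alone, 159 with the WT1 and Hyp1 array left out and 0 to 121 without a set (0 without set 3). The 20 in Dil minus Hyp became 52 with arrays as independent, 43 with no dye term, 41 with the WT1 and Hyp1 column as deposited, 7 with it left out, 0 with the replicate block or direct arrays alone, and 0 to 15 without a set. Hyp minus WT gave 0 in all settings. Placing the last 8 blocks of the WT1 and Hyp1 column, and leaving out spot 1 of Gpcpd1, were chosen after seeing the data.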
